A study of Mus musculus with 6 samples.

Results

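The clustered protocadherin genes of sorted mouse mammary epithelial cells were examined in 6 RNA-seq libraries. The genes were taken by symbol, as every gene of the alpha, beta and gamma clusters (Pcdha, Pcdhb and Pcdhg) with at least 1 count in at least 1 library, and the noncoding gene Gm38182, which lies inside the gamma cluster, was added. The cluster genes were thus chosen by symbol and by the presence of a count, and Gm38182 was selected on its difference between the genotypes in these libraries. By this rule 55 of 54418 genes were kept, made up of 10 of 14 alpha genes, 22 of 22 beta genes, 22 of 22 gamma genes and Gm38182. Pcdha1, Pcdha2, Pcdha3 and Pcdha8 were listed at 0 counts in every library and lay just outside the rule. Just inside it lay Pcdha5, with 5 counts in all and in 1 library only, Pcdhb1 with 12 counts and Pcdha7 with 18 counts. The cells came from female C57BL/6 mice that were 4 weeks old, 3 of them Glis2+/+ and 3 Glis2-/- with a germline knockout of Glis2, and each mouse gave 1 library. Glis2 encodes a zinc finger transcription factor of the Gli-similar family. Mammary glands were dissociated, stained for viability, for the blood and endothelial antigens TER-119, CD31 and CD45 and for CD24 and CD49f, and sorted by FACS, and total RNA was sequenced. The comparison between the genotypes asked how the loss of Glis2 altered gene expression in these cells.

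Clustered protocadherins are single-pass membrane proteins of the cadherin superfamily that bind identical protocadherins on neighboring cells. They are best known from neurons, where each cell transcribes a small, partly random set of them and the combination lets the branches of a cell recognize one another. In the alpha and gamma clusters each gene contributes a variable first exon with its own promoter, which carries the extracellular part and the membrane span, and this exon is spliced to 3 constant exons that the whole cluster shares. The beta genes consist mostly of 1 exon and have no constant region. The C types, Pcdhac1 and Pcdhac2 in the alpha cluster and Pcdhgc3, Pcdhgc4 and Pcdhgc5 in the gamma cluster, are set apart in sequence and in neurons are largely exempt from random promoter choice.

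The libraries held 24996524 to 31393917 counts, of which 8673 to 12941 fell in the clustered protocadherin genes, or 0.0303% to 0.0412% of a library. Between 48 and 52 of the 55 genes had a count in a given library. Glis2 itself was lower in every library labelled as knockout, at 10.1 to 17.0 CPM, than in every Glis2+/+ library, at 19.6 to 23.2 CPM (CPM, counts scaled to library size with edgeR's TMM factors), but its transcripts were present in all of them. Its log2 fold change was -0.57 (SE 0.22, adjusted p = 0.906 from edgeR), and -0.37 without Glis2-/- replicate 1. In TPM the genotypes overlapped, at 2.08 to 4.19 TPM in Glis2+/+ and 2.75 to 3.17 TPM in Glis2-/- cells, with a log2 fold change of -0.021 on the log2(TPM + 1) scale. Markers of basal, luminal, fibroblast, endothelial, pericyte, immune, Schwann and neural, fat and muscle cells were all detected. Keratins and other basal and luminal markers were abundant, with summed levels of 4364 to 7173 CPM and 3756 to 6373 CPM. Fibroblast markers reached 2952 to 8767 CPM and endothelial markers 145 to 709 CPM. Markers of other cells thus lay beside those of the labelled epithelium, and in bulk RNA fewer cells of a type cannot be told apart from less RNA per cell. Nothing in the labels says that mice of a genotype came from separate litters, so that the spread between libraries is the spread between these 6 mice.

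The 3 clusters lie in a row on the plus strand of chromosome 18 in GRCm38, the alpha cluster from 36930184 to 37187661, the beta cluster from 37264938 to 37524479 and the gamma cluster from 37661793 to 37841873. The 3 constant exons measured 59, 89 and 2712 bases in the alpha cluster and 59, 89 and 1968 bases in the gamma cluster. Reads from these exons fit every gene of the cluster, and the estimated counts depend on how the authors' quantification divided them. As a measure of this, the share of the 31-base words in a gene's transcripts that occur in no other gene was counted. It was lowest in the alpha cluster, at 9.32% to 54.5% with a median of 36.5%. It was 32.5% to 67.0% with a median of 53.8% in the gamma cluster, and 77.5% to 100% with a median of 88.2% in the beta cluster. Counts of single alpha and gamma genes are therefore less certain than those of beta genes, while a sum over a cluster does not depend on the division within it.

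Levels were compared between genes in TPM, which is scaled for transcript length. These values were low throughout. Gm23935, annotated as a microRNA gene, took 83.0% to 85.7% of the TPM of every library, which scales down all other genes alike. The 55 genes were low in counts as well, at 0.0303% to 0.0412% of a library. The median gene stood at 0.0143 TPM in the alpha cluster, 0.127 TPM in the beta cluster and 0.394 TPM in the gamma cluster. Of the counts in all 55 genes, the gamma genes held 71.6% to 82.5%, the beta genes 13.2% to 17.8% and the alpha genes 3.13% to 13.3%.

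**Figure D1:**
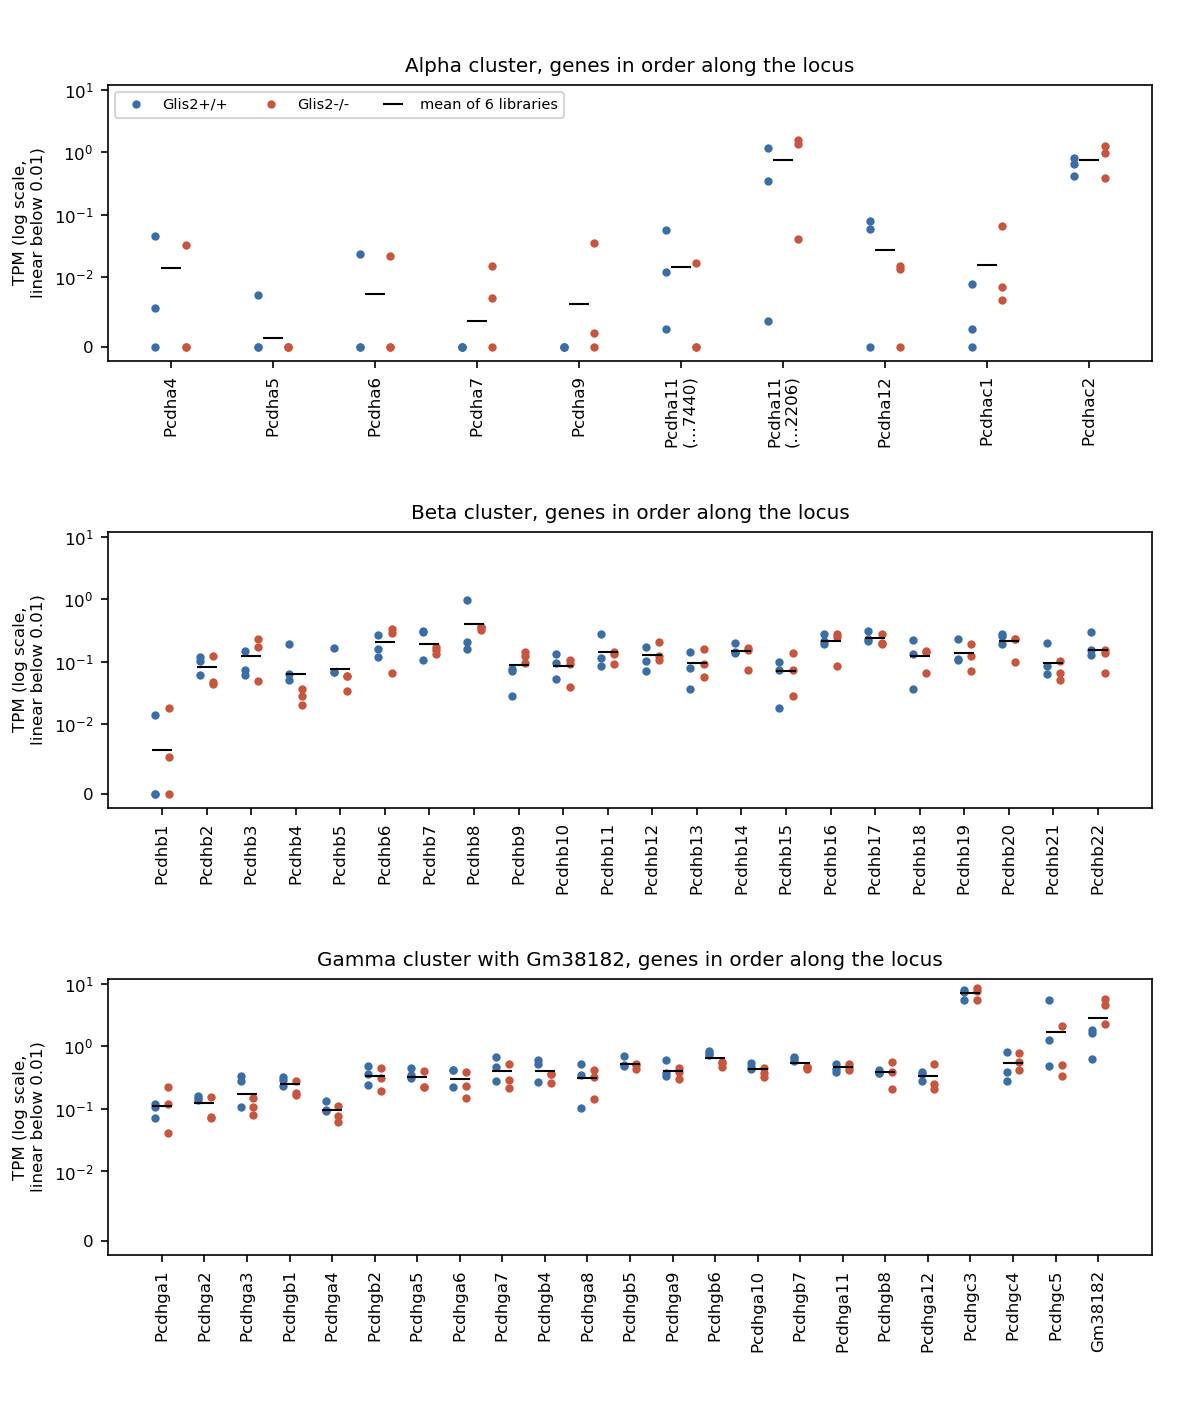
Level of each clustered protocadherin gene in TPM (vertical axis, log scale, linear below 0.01) in the 3 Glis2+/+ libraries (blue) and the 3 Glis2-/- libraries (red), with genes in their order along the locus and the mean of the 6 libraries as a black bar. Most alpha genes touch 0 in some library, the beta genes other than Pcdhb1 lie in a band around 0.1 TPM, and Pcdhgc3 stands above every other gene at a mean of 7.11 TPM.

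In the alpha cluster most of the counts came from Pcdhac2, the last C type of the cluster, which held 81.4% to 86.2% of them. Its levels were 0.412, 0.819 and 0.649 TPM in the Glis2+/+ libraries and 0.972, 1.27 and 0.382 TPM in the Glis2-/- libraries. The other C type, Pcdhac1, stood at 0 to 0.0670 TPM. The numbered genes, which encode the alternate isoforms, were scattered over the libraries, and Pcdha5, Pcdha6, Pcdha7 and Pcdha9 each had counts in only 1 or 2 libraries. The symbol Pcdha11 stands for 2 of the kept genes. One of them, ENSMUSG00000102206, was detected in all 6 libraries, with counts of 2, 72 and 16 for the Glis2+/+ mice and of 68, 118 and 28 for the Glis2-/- mice. Its mean of 0.743 TPM lay beside the 0.750 TPM of Pcdhac2, and it stood above Pcdhac2 in 3 of 6 libraries. Its level of 0.00364 to 1.56 TPM rests on which transcript the reads were given to, because the length implied by counts and TPM was 451 to 523 bases in 4 libraries and 4493 bases in Glis2-/- replicate 3. The other, ENSMUSG00000007440, had at most 31 counts in a library.

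The 22 beta genes lay close together. All but Pcdhb1 were detected in every library, and the gene means ran from 0.00635 TPM for Pcdhb1 to 0.397 TPM for Pcdhb8. Pcdhb8 stood at 0.161, 0.210 and 0.970 TPM in Glis2+/+ and 0.354, 0.327 and 0.360 TPM in Glis2-/- cells, with Glis2+/+ replicate 3 far above the rest. The length implied by its counts and TPM was only 837 to 1907 bases, beside 4696 to 4718 bases for Pcdhb17, and in CPM it was the lower of the pair, at a mean of 2.02 against 4.99 CPM. Pcdhb17 followed with a mean of 0.239 TPM and a narrow range of 0.195 to 0.310 TPM, and Pcdhb16 with 0.217 TPM. In TPM the ranges of these 3 genes overlapped, whereas in CPM every library of Pcdhb8 lay below every library of Pcdhb17. The first 11 genes of the cluster had a median of 0.0903 TPM and the last 11 a median of 0.140 TPM. Across the 22 genes, order along the cluster and mean level went together with a Spearman rho of 0.43, and in single libraries with 0.15 to 0.46. This is a description over genes that share libraries and reads.

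In the gamma cluster Pcdhgc3, the first C type, was the most abundant gene of the whole locus. Its levels were 7.42, 5.42 and 7.87 TPM in Glis2+/+ and 8.72, 5.48 and 7.76 TPM in Glis2-/- cells. No other gene of the 3 clusters except Gm38182 and Pcdhgc5 reached 2 TPM in any library, and the lowest Pcdhgc3 value lay just below the highest values of these genes, 5.82 and 5.50 TPM. For scale, Pcdh7 and Pcdh1, the most abundant protocadherins outside the clusters, had means of 4.71 and 4.01 TPM. Pcdhgc4 stood at 0.280 to 0.813 TPM. Pcdhgc5 ranged from 0.330 to 5.50 TPM, although its counts only ranged from 190 to 476. The length implied by its counts and TPM was 624, 1243 and 5015 bases in the Glis2+/+ libraries and 5303, 5522 and 1345 bases in the Glis2-/- libraries, so that the reads were given to short transcripts in some libraries and to long ones in others. Its TPM is for this reason not a firm measure of its rank.

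The 19 gamma A and B types showed a gradient along the cluster. The most upstream genes were the lowest, with Pcdhga1 at a mean of 0.113 TPM, Pcdhga2 at 0.126 TPM and Pcdhga4 at 0.0963 TPM. The highest were downstream, Pcdhgb6 at 0.651 TPM, Pcdhgb7 at 0.546 TPM and Pcdhgb5 at 0.524 TPM. The spreads of the latter over libraries overlapped, with 0.464 to 0.836 TPM for Pcdhgb6, 0.443 to 0.671 TPM for Pcdhgb7 and 0.427 to 0.690 TPM for Pcdhgb5. The last A and B types along the cluster, Pcdhgb8 and Pcdhga12, were lower again, at means of 0.391 and 0.333 TPM. Across the 19 genes, order and mean level had a Spearman rho of 0.75, and it was 0.60 to 0.81 in single libraries. The B types held 43.8% to 49.7% of the A and B counts. These genes end in the same constant exons, and that part of their reads carries no information on position.

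The pattern over genes was as alike between genotypes as within them. For the 22 gamma genes the mean Spearman rho between 2 libraries was 0.69 within a genotype and 0.72 between genotypes, and for the 22 beta genes it was 0.50 and 0.51. For the 10 alpha genes it was 0.43 and 0.41. These are descriptions across genes, which are not independent replicates.

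The summed level of each cluster was then set beside genotype. The alpha cluster stood at 13.2, 24.6 and 18.5 CPM in the Glis2+/+ libraries and 29.5, 45.5 and 12.9 CPM in the Glis2-/- libraries. The Glis2-/- group thus held both the highest values and the lowest one, and the log2 fold change of Glis2-/- over Glis2+/+ cells was 0.64 (SE 0.41). Without Glis2-/- replicate 2 it was 0.16 (SE 0.38), and without Glis2-/- replicate 3 it was 0.99 (SE 0.29). The beta cluster stood at 55.3, 42.1 and 66.0 CPM in Glis2+/+ and 54.8, 45.2 and 59.5 CPM in Glis2-/- cells, a log2 fold change of -0.04 (SE 0.18), and -0.20 to 0.13 with each library left out in turn. The gamma cluster stood at 332, 232 and 284 CPM in Glis2+/+ and 315, 245 and 324 CPM in Glis2-/- cells, a log2 fold change of 0.06 (SE 0.16), and -0.069 to 0.18 with each library left out. The genotypes overlapped in all 3 sums.

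Some cell type marker sums were low or high in the same libraries as these sums, and others were not. Summed luminal markers, such as Krt8 and Elf5, stood at 3756, 6198 and 5067 CPM in Glis2+/+ and 5409, 6373 and 3789 CPM in Glis2-/- cells. The 2 libraries lowest in luminal markers, Glis2+/+ replicate 1 and Glis2-/- replicate 3, were the 2 lowest in the alpha sum, and Glis2-/- replicate 2 was highest in both. The beta and gamma sums were lowest in replicate 2 of each genotype. These 2 libraries were also the lowest in fibroblast markers, at 2952 and 3409 CPM against 5301 to 8767 CPM in the others, and in endothelial markers, at 145 and 233 CPM against 449 to 709 CPM. Basal and immune markers went otherwise. Both were highest in Glis2-/- replicate 3, at 7173 and 117 CPM, where the alpha sum was lowest at 12.9 CPM. Basal markers were lowest in Glis2+/+ replicate 3, at 4364 CPM, where the beta sum was highest at 66.0 CPM. The part of any of these cells in the protocadherin levels was not tested.

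**Figure D2:**
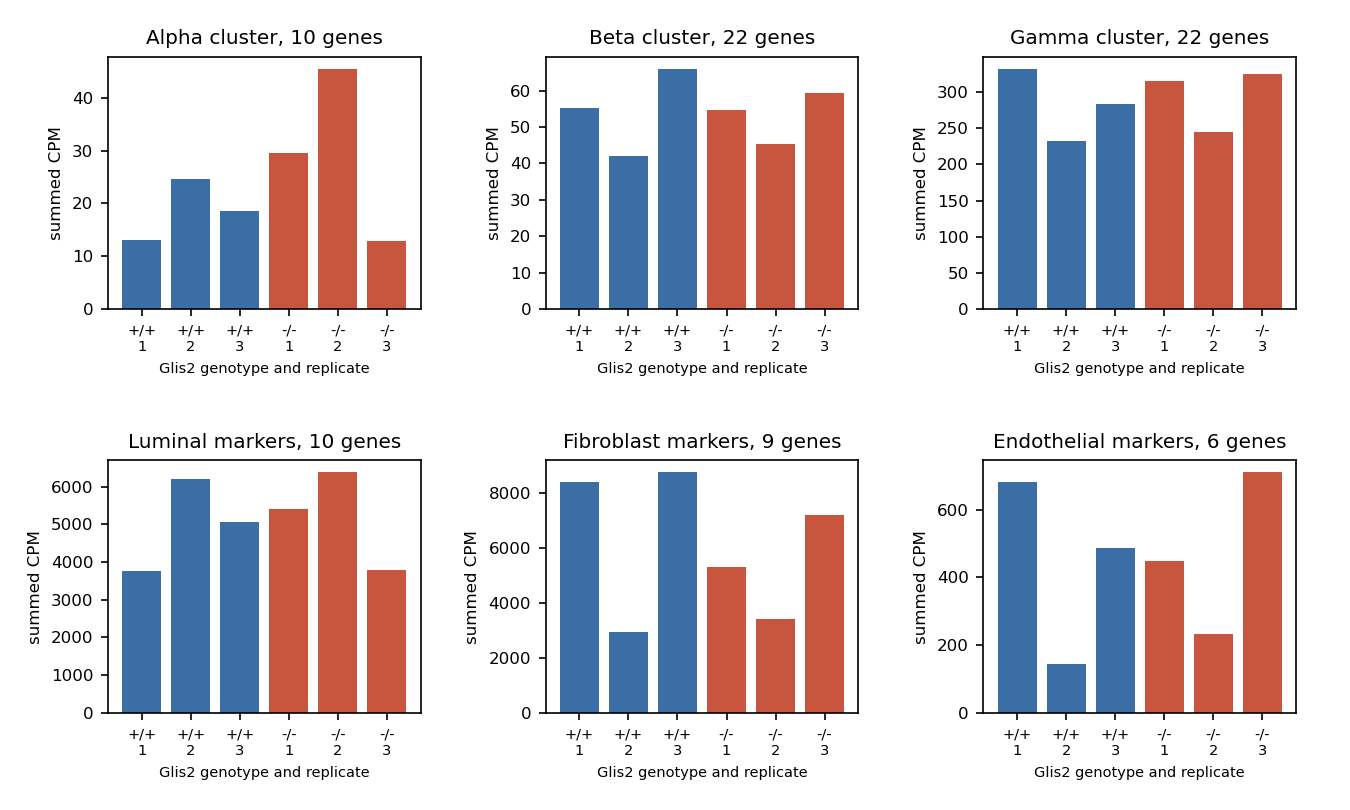
Summed CPM (vertical axes, from 0) of the alpha, beta and gamma clusters (upper row) and of the luminal, fibroblast and endothelial marker lists (lower row) in each of the 3 Glis2+/+ libraries (blue) and 3 Glis2-/- libraries (red). The alpha cluster is highest in Glis2-/- replicate 2 at 45.5 CPM, as the luminal markers are at 6373 CPM, and the gamma cluster is lowest in replicate 2 of both genotypes at 232 and 245 CPM, as the fibroblast and endothelial markers are.

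Gene by gene, 47 of the 55 genes had enough counts for edgeR's filter: 3 alpha genes, 21 beta genes, the 22 gamma genes and Gm38182. The 8 genes that fell below it were 7 alpha genes and Pcdhb1. Gm38182 was singled out because of an earlier result for this same contrast, so that it is given separately and without a test. Of the other 46 genes, 0 passed an adjusted p of 0.05 with an absolute log2 fold change of 0.58 in edgeR's quasi-likelihood test, and the smallest adjusted p was 0.906. The test called 0 of 21236 genes (0.0%) in all, with a smallest adjusted p of 0.392. At an unadjusted p under 0.05 there was 1 of the 46 genes, Pcdhb4, beside 1130 of 21236 genes (5.32%). DESeq2 with apeglm, the tools of the study's methods, here run over all genes and not the protein-coding ones alone, called 45 of 37115 genes (0.121%), 36 higher (0.097%) and 9 lower (0.0242%) in Glis2-/- cells. The 37115 were all genes with a count, including those to which DESeq2 gave no adjusted p. Apart from Gm38182, DESeq2 with apeglm called 0 of the 52 clustered protocadherins that had an adjusted p.

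The fold changes centred near 0. Of the 46 genes 19 had a positive and 27 a negative log2 fold change, with a median of -0.04, beside a median of 0.01 over all genes tested, of which 51.6% were positive. The median was 0.67 for the 3 alpha genes, -0.05 for the 21 beta genes and -0.09 for the 22 gamma genes. The alpha median was the value of Pcdhac2, with the tested Pcdha11 gene at 1.24 (SE 1.02) and Pcdha12 at -2.04 (SE 1.54). The alpha median was negative in 4 of the 6 fits that left out 1 library, at -0.78 without Glis2+/+ replicate 1, -0.77 without Glis2+/+ replicate 2, -0.34 without Glis2+/+ replicate 3 and -0.22 without Glis2-/- replicate 2, where 4 to 6 alpha genes passed the filter. For 31 of the 46 genes the standard error was larger than the fold change itself, beside 13513 of all 21236 genes tested. The spread between mice was wide, with a median biological coefficient of variation of 38.9% for the 46 genes and 29.8% for all genes tested. It was 83.9% for the alpha genes, 48.5% for the beta genes and 30.95% for the gamma genes.

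**Figure D3:**
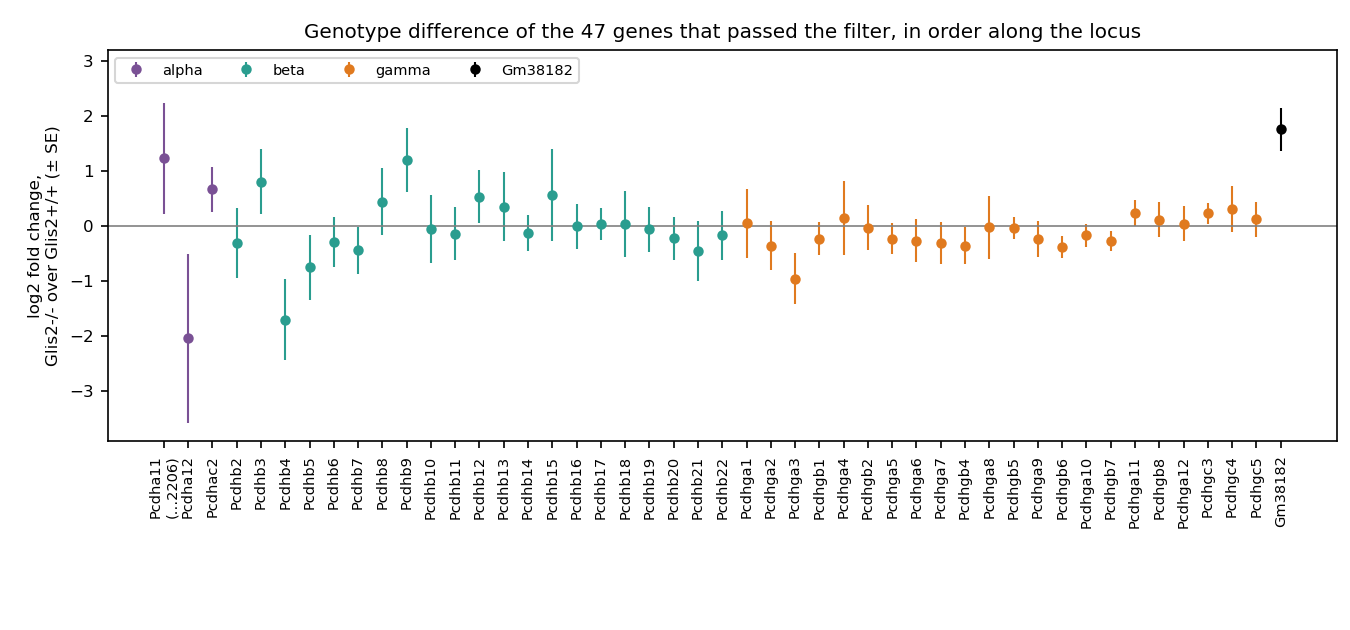
Log2 fold change of Glis2-/- over Glis2+/+ cells (vertical axis) with its standard error (bars) for the 47 genes that passed the filter on low counts, in order along the locus and colored by cluster. Most bars cross 0, the widest belong to Pcdha12 and the tested Pcdha11 gene, ENSMUSG00000102206, and Gm38182 stands at 1.76.

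Among the alpha genes, Pcdhac2 stood at 11.1, 20.5 and 15.1 CPM in the Glis2+/+ libraries and 24.9, 38.4 and 11.2 CPM in the Glis2-/- libraries. The 2 highest libraries were Glis2-/-, but Glis2-/- replicate 3 lay beside the lowest Glis2+/+ library. The group means were 15.6 ± 4.70 CPM (SD, n = 3) and 24.8 ± 13.6 CPM (SD, n = 3), with a log2 fold change of 0.67 (SE 0.41, adjusted p = 0.935 from edgeR). It was 0.20 without Glis2-/- replicate 2 and 1.01 without Glis2-/- replicate 3. Pcdha12 had counts of 0, 38 and 43 for the Glis2+/+ mice and of 8, 12 and 0 for the Glis2-/- mice, and both genotypes included a library without a count. The kept alpha genes other than Pcdhac2, summed, had a log2 fold change of 0.50 (SE 0.51). It was -0.018 without Glis2-/- replicate 2 and 0.86 (SE 0.41) without Glis2-/- replicate 3.

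Among the beta genes, Pcdhb4 stood at 3.18, 0.980 and 0.729 CPM in Glis2+/+ and 0.320, 0.668 and 0.511 CPM in Glis2-/- cells. The groups did not overlap, but the closest libraries were only 0.729 and 0.668 CPM, and Glis2+/+ replicate 1 stood far above the rest. Its log2 fold change was -1.69 (SE 0.73, unadjusted p = 0.047 and adjusted p = 0.906 from edgeR), and -0.78 without that library. Pcdhb9 lay the other way, at 0.972, 0.350 and 0.921 CPM in Glis2+/+ and 1.199, 1.87 and 2.14 CPM in Glis2-/- cells. Every Glis2-/- library was above every Glis2+/+ library, with a log2 fold change of 1.21 (SE 0.59, adjusted p = 0.906 from edgeR). The remaining 19 beta genes tested overlapped between the genotypes, and a beta gene's highest library was at the median 3.06 times its lowest. Pcdhb17, one of the most abundant, stood at 4.50, 4.62 and 5.64 CPM in Glis2+/+ and 3.92, 4.77 and 6.49 CPM in Glis2-/- cells, a log2 fold change of 0.04 (SE 0.29).

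Among the gamma genes, Pcdhgc3 stood at 150.3, 98.5 and 137 CPM in Glis2+/+ and 164, 120.4 and 171 CPM in Glis2-/- cells. The groups overlapped, at 128.6 ± 26.9 CPM (SD, n = 3) and 151.6 ± 27.3 CPM (SD, n = 3), with a log2 fold change of 0.24 (SE 0.19, adjusted p = 0.941 from edgeR). With each library left out in turn it was 0.079 to 0.37, the lowest without Glis2+/+ replicate 2, and it was 0.13 without Glis2-/- replicate 3. Pcdhgb6 was very even in Glis2+/+ cells, at 15.4, 15.3 and 15.3 CPM, and stood at 9.35, 13.1 and 12.9 CPM in Glis2-/- cells. All Glis2-/- libraries lay below, with a log2 fold change of -0.38 (SE 0.20, adjusted p = 0.919 from edgeR), and -0.24 without Glis2-/- replicate 1. Pcdhgb7, its near neighbor, stood at 12.3, 12.8 and 12.4 CPM in Glis2+/+ and 9.51, 11.3 and 10.3 CPM in Glis2-/- cells, again without overlap, with a log2 fold change of -0.27 (SE 0.18, adjusted p = 0.941 from edgeR). Pcdhga10 was the third gamma gene with every Glis2-/- library below every Glis2+/+ library, at -0.16 (SE 0.21), and -0.087 without Glis2-/- replicate 3. Across the locus 1 of 46 genes, Pcdhb9, lay wholly above and 4 of 46 wholly below, while 6.23% of all genes tested lay wholly above, 5.5% wholly below and 11.7% one way or the other.

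The largest difference among the gamma genes was that of Pcdhga3, at 7.16, 2.14 and 5.14 CPM in Glis2+/+ and 3.04, 1.94 and 2.49 CPM in Glis2-/- cells. These groups overlapped, with a log2 fold change of -0.95 (SE 0.46, adjusted p = 0.906 from edgeR), and -0.57 without Glis2+/+ replicate 1. The steadiest gene was Pcdhgb5, whose highest library was 1.27 times its lowest, and the most uneven was Pcdhga4 at 7.58 times. Of the 12 A types 4 had a positive and 8 a negative log2 fold change, and of the 7 B types 1 was positive and 6 were negative. All 3 C types had a positive one, Pcdhgc4 with 0.32 (SE 0.42) and Pcdhgc5 with 0.13 (SE 0.32), although Pcdhgc5 turned to -0.61 on the deposited log2(TPM + 1) scale and Pcdhgc4 to -0.015 without Glis2+/+ replicate 3. Summed, the A and B types stood at 151, 119.9 and 133 CPM in Glis2+/+ and 129, 106 and 126 CPM in Glis2-/- cells, a log2 fold change of -0.16 (SE 0.12), and -0.24 to -0.082 with each library left out. The C types stood at 181, 113 and 151 CPM in Glis2+/+ and 186, 139 and 198 CPM in Glis2-/- cells, a log2 fold change of 0.23 (SE 0.19), and 0.073 without Glis2+/+ replicate 2 to 0.39 without Glis2+/+ replicate 1. Both sums overlapped between the genotypes.

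The makeup of the gamma counts was set beside genotype as well. Pcdhgc3 held 45.2%, 42.4% and 48.3% of the gamma counts in the Glis2+/+ libraries and 52.0%, 49.0% and 52.6% in the Glis2-/- libraries. The 3 C types together held 54.4%, 48.4% and 53.2% in Glis2+/+ and 59.0%, 56.6% and 61.1% in Glis2-/- cells. In both shares every Glis2-/- library lay above every Glis2+/+ library, although the gap between the closest libraries was small. Pcdhgc3 makes up most of the C types, so that these are not separate measures, and they were 2 of 9 shares computed that did not overlap. Both depend on how reads of the constant exons were divided, and both leave out Gm38182. That gene held 0.678% to 1.86% of the gamma and Gm38182 counts in Glis2+/+ and 2.65% to 4.87% in Glis2-/- cells, so that counting it would narrow the gap. In TPM the share of Pcdhgc3 in the summed gamma level was 34.8%, 39.8% and 47.8% in Glis2+/+ and 51.9%, 49.8% and 46.9% in Glis2-/- cells, so that the genotypes overlapped by 1 library each. This share includes the TPM of Pcdhgc5, which varied with its implied length. Also among the shares that overlapped was that of Pcdhac2 in the alpha counts, at 81.4% to 84.5% in Glis2+/+ and 84.3% to 86.2% in Glis2-/- cells. The summed basal markers lay apart by genotype in the same way, at 4364 to 5540 CPM in Glis2+/+ and 5956 to 7173 CPM in Glis2-/- cells, and the summed immune markers too, at 25.5 to 53.1 CPM and 60.5 to 117 CPM. Taken singly, 3 of 9 basal and 3 of 6 immune markers lay wholly above in Glis2-/- cells and 0 wholly below, beside 6.23% and 5.5% of all genes tested. Their part in the shares was not tested.

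**Figure D4:**
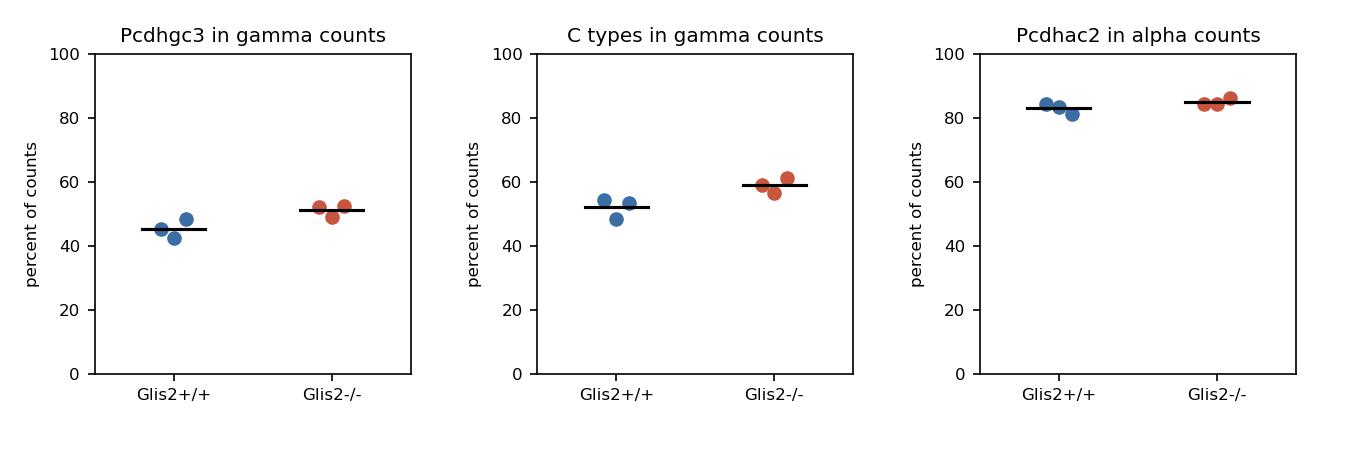
Percent of the gamma counts in Pcdhgc3 (left), percent of the gamma counts in the 3 C types (middle) and percent of the alpha counts in Pcdhac2 (right) in each library, with the genotype mean as a bar. The Glis2-/- libraries lie above the Glis2+/+ libraries in the first 2 panels, at 49.0% to 52.6% against 42.4% to 48.3% for Pcdhgc3, and overlap with them in the third.

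Gm38182 (ENSMUSG00000102828) is annotated as a processed transcript with 5 isoforms on the plus strand of chromosome 18, from 37823879 to 37840382 of GRCm38, at the downstream end of the gamma cluster. Its counts were 70, 126 and 98 for the Glis2+/+ mice and 304, 200 and 520 for the Glis2-/- mice. Scaled for library size these were 2.27, 4.41 and 3.76 CPM in Glis2+/+ and 12.1, 6.68 and 16.6 CPM in Glis2-/- cells, or 3.48 ± 1.10 CPM (SD, n = 3) against 11.8 ± 4.98 CPM (SD, n = 3). All Glis2-/- libraries lay above all Glis2+/+ libraries. The fitted log2 fold change was 1.76 (SE 0.39), the value for which the gene was chosen, and it was 1.42 to 2.04 with each library left out in turn. Since the gene was chosen on these same libraries, the lack of overlap and this range restate the choice and test nothing.

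All 1530 exonic bases of Gm38182 lie within exons of Pcdhgc5. Of these bases 628 lie in the constant exons that every gamma gene uses, namely all 59 and all 89 bases of the first 2 and 480 bases of the last. Only 9.02% of the 31-base words in its transcripts occur in no other gene, the lowest share among the 55 genes. The short transcripts annotated for Pcdhgc5, of 444 and 593 bases, hold 297 and 446 bases of Gm38182 exons, and one long transcript of 5777 bases holds 1312 of them. Reads over this stretch could thus be counted for Gm38182, for a short or long form of Pcdhgc5 or, over the constant exons, for any gamma gene.

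Of the counts given to Gm38182 or Pcdhgc5, the part given to Gm38182 was 12.8%, 39.9% and 28.2% in the Glis2+/+ libraries and 51.4%, 42.0% and 54.3% in the Glis2-/- libraries. Pcdhgc5 itself stood at 15.4, 6.65 and 9.59 CPM in Glis2+/+ and 11.5, 9.21 and 14.0 CPM in Glis2-/- cells. Glis2+/+ replicate 1, the library with the least Gm38182, was the one with the most Pcdhgc5 and with its shortest implied transcript, 624 bases. Summed over both genes the libraries stood at 17.7, 11.1 and 13.4 CPM in Glis2+/+ and 23.6, 15.9 and 30.6 CPM in Glis2-/- cells. This sum overlapped between the genotypes, since Glis2-/- replicate 2 fell below Glis2+/+ replicate 1, and its log2 fold change was 0.74 (SE 0.27), and 0.48 without Glis2-/- replicate 3. It holds the counts of Gm38182 and so carries the choice of that gene, while Pcdhgc5 alone had 0.13 (SE 0.32). In TPM the sum was 6.12, 3.13 and 2.14 in Glis2+/+ and 5.12, 2.62 and 7.96 in Glis2-/- cells, with the genotypes interleaved. With Gm38182 added to the gamma cluster, the log2 fold change of the cluster was 0.10 (SE 0.16), beside 0.06 without it, and -0.026 to 0.22 with each library left out. More RNA from Gm38182 in Glis2-/- cells and another division of the same reads cannot be told apart from gene counts.

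**Figure D5:**
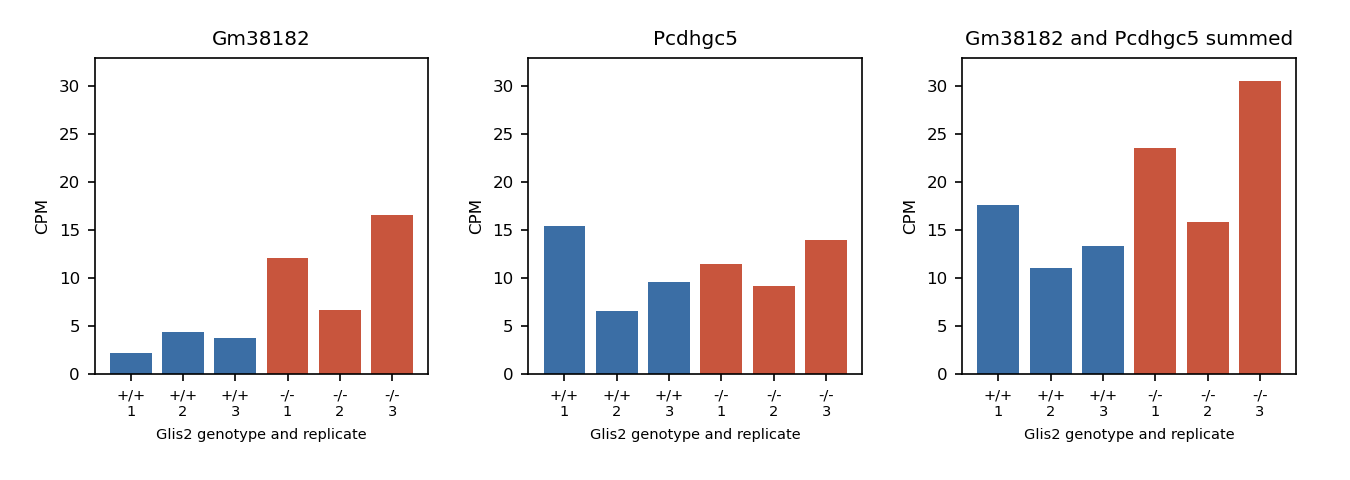
CPM (vertical axes, from 0) of Gm38182, of Pcdhgc5 and of both summed in each of the 3 Glis2+/+ libraries (blue) and 3 Glis2-/- libraries (red). The genotypes are apart for Gm38182, at 2.27 to 4.41 CPM against 6.68 to 16.6 CPM, and overlap for Pcdhgc5 and for the sum.

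The basal and immune sums, which also lay apart by genotype, were highest in Glis2-/- replicate 3, at 7173 and 117 CPM, as Gm38182 was. Schwann and neural markers, among which Tubb3 and Elavl3 stayed under 1 CPM in every library, stood at 308 to 550 CPM in Glis2+/+ and 328 to 397 CPM in Glis2-/- cells. The part of these markers in the Gm38182 values was not tested.

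Other genes connected with the clusters were read from the same test. Of the 20 genes listed for promoter choice and chromatin of the locus, among them Ctcf and the cohesin subunits that loop the chosen promoters to distant enhancers, 0 passed the adjusted p and 2 had an unadjusted p under 0.05, both lower in Glis2-/- cells. Smchd1, a chromatin protein known to keep clustered protocadherin genes silent, stood at 192, 190.1 and 187 CPM in Glis2+/+ and 145, 163 and 161 CPM in Glis2-/- cells. The groups did not overlap, with a log2 fold change of -0.28 (SE 0.09, adjusted p = 0.906 from edgeR). Dnmt1, the maintenance DNA methyltransferase, stood at 303.5 ± 37.9 CPM (SD, n = 3) and 240.9 ± 13.0 CPM (SD, n = 3), with a log2 fold change of -0.33 (SE 0.11, adjusted p = 0.906 from edgeR). The share of all genes with an unadjusted p under 0.05 and a lower level in Glis2-/- cells was 2.33%. Of the 20 genes 3 lay wholly below in Glis2-/- cells, Smchd1, Dnmt1 and the cohesin gene Smc1a, and 0 wholly above. Among all genes tested 5.5% lay wholly below and 6.23% wholly above.

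Of the 19 genes for the processing and the partners of the proteins, such as the protease Adam10 and the WAVE complex that binds protocadherin tails, 0 passed the adjusted p and 1 had an unadjusted p under 0.05. This was Cyfip2, a subunit of the WAVE complex, at 6.77, 3.33 and 1.84 CPM in Glis2+/+ and 7.11, 12.5 and 10.1 CPM in Glis2-/- cells. The groups did not overlap, with a log2 fold change of 1.31 (SE 0.46, adjusted p = 0.906 from edgeR), and 2.99% of all genes were higher at an unadjusted p under 0.05. Of the 19 genes 1 lay wholly above in Glis2-/- cells and 0 wholly below, beside 6.23% and 5.5% of all genes tested. The 11 protocadherins outside the clusters that were tested had 5 positive and 6 negative log2 fold changes with a median of -0.14, and 0 of them had an unadjusted p under 0.05. Pcdh7 averaged 76.0 ± 17.6 CPM (SD, n = 3) in Glis2+/+ mice against 81.6 ± 19.2 CPM (SD, n = 3) in Glis2-/- mice, and Pcdh1 66.8 ± 12.5 CPM (SD, n = 3) and 59.3 ± 6.89 CPM (SD, n = 3). Of the 18 genes beside the locus on chromosome 18, 0 had an unadjusted p under 0.05, and their median log2 fold change was -0.05.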

How the data were processed

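RNA-seq libraries of sorted mammary epithelial cells from 3 Glis2+/+ and 3 Glis2-/- mice were analyzed, grouped by the genotype in the labels. The authors quantified reads with Salmon 1.2.1 against a transcriptome of mm10 with the genome as a decoy, summed transcripts to genes with tximport, and deposited estimated counts as whole numbers, and TPM as log2(TPM + 1). Whether strand was used in counting is not given in the sources used here. TPM was recovered from the deposited log2 values. Symbols and positions came from a GRCm38 annotation older than the authors' (54096 of 54418 identifiers matched).

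Counts were tested in edgeR 4.0.16 (R 4.3.3) with filterByExpr, TMM and the quasi-likelihood test over 21236 genes, with Benjamini-Hochberg adjustment over all of them and a gene was called where the adjusted p was 0.05 or less and the log2 fold change 0.58 or more in size. SE was derived from the fold change and its F statistic. Sums of a cluster replaced its members in the fit and are given without a p. Alternatives used DESeq2 1.42.0 with apeglm 1.24.0, DESeq2 size factors, other filters, limma 3.58.1 on the log2 values with offsets of 1 and 0.1, no fold threshold, a replicate block and each library left out. Sums with Gm38182, of gamma types and without the leading member were added after seeing the data. The functions were tested on simulated counts. The libraries were no copies of one another (chi-square per degree of freedom of at least 18.8).

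Members and gene lists were chosen with earlier results of these data known. Named were Glis2, Gm38182, members with a mean of at least 1 CPM, the 3 most abundant of each cluster, members and listed genes with an unadjusted p under 0.05, the lowest members kept and the most abundant other protocadherins. Genes with a detected alpha transcript below these limits were named after their values were seen.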

Additional observations from a re-analysis of the deposited data

How the results depend on the processing

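The count of 0 genes called became 45 of all genes with DESeq2 and apeglm, 40 without a filter on low counts and 1 with log2(TPM + 0.1) in limma. The clustered protocadherins called became 1 with DESeq2 and apeglm and 1 without a filter. In both cases this was Gm38182, which was chosen for its difference in this contrast, so that the call restates the choice, and 0 of the other clustered protocadherins were called. Both counts were 0 under the other alternatives, and the cause was not tested. Gm38182 had a log2 fold change of 1.12 on the log2(TPM + 1) scale and 0.74 when summed with Pcdhgc5. On the TPM scale with offsets of 1 and 0.1, Pcdhb17 turned to -0.031 and -0.11 and Pcdhgc5 to -0.61 and -0.99, and Glis2 moved from -0.57 to -0.021 and -0.015. Leaving out each library in turn gave -0.19 to 0.19 for Pcdhb17, -0.11 to 0.49 for Pcdhgc5, -0.015 to 0.91 for Pcdhgc4 and -0.78 to 0.79 for the median of the alpha genes, of which 4 to 6 then passed the filter. Of the 51 genes named by rule other than Gm38182, 48 were fitted in all 13 alternatives and the others in 12. Of the 51, 26 turned in none of those run, 25 turned in at least 1, 11 of them only where a library was left out, and 0 were called. Apeglm shrank 50 of them to 0, which was not taken as a turn, so that it could show none. The replicate numbers gave no pairing of the mice, with correlations of -0.02, 0.17 and 0.02 between deviations of libraries of equal number, and with a replicate block 0 genes were called.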
